A study of Mus musculus with 46 samples.

Results

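The peak lists of the histone variant H3.3, of histone H3 trimethylated at lysine 4 (H3K4me3) and of histone H3 trimethylated at lysine 36 (H3K36me3) in induced pluripotent stem cells (iPSCs) were set side by side. These were 3 of the 46 samples of the series, with 1 ChIP-Seq library per mark. The 22225 protein-coding genes of the mouse annotation on build mm9 were sorted by the marks they carried, and 16185 of them carried at least 1. A gene was said to carry a mark when called peaks of that library covered at least 200 bp of the region from 1000 bp before its start to its end.

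The series followed mouse embryonic fibroblasts (MEFs) that were infected with retroviral pMXs vectors for Oct4, Sox2, Klf4 and c-Myc. The iPSCs were the fully reprogrammed cells of this conversion, carried a GFP reporter at Oct4 and were not sorted for the ChIP. Per the labels, they were grown in the feeder-free medium used for reprogramming, which holds LIF, bFGF, the GSK3 inhibitor CHIR99021, ascorbic acid and N-2, as were mouse embryonic stem cells of the D3 line (ESD3), which gave an H3.3 library only. The study's methods name other LIF media, with serum or serum replacement, for both. Fibroblasts on day 0 (D0), Thy-1-negative cells on day 9 (D9T-) and SSEA-1-positive cells on day 16 (D16S+) were used for comparison, each with 1 library per mark. Whether the iPSCs were 1 clone or several is not given in the sources used here. Each value rests on 1 library, so the replicate error is unknown and no test was made. Shares of genes are given with 95% Wilson intervals, which cover counting error only.

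H3.3 is the replication-independent form of histone H3. The Hira complex places it at active genes and their regulatory elements, and Atrx with Daxx places it at heterochromatin. H3K4me3 is written by the Set1 and Mll methyltransferase complexes and lies at promoters, above all at those in CpG islands, whether the gene is strongly transcribed or held back by Polycomb. H3K36me3 is written by Setd2, which travels with elongating RNA polymerase, and lies over the bodies of transcribed genes. The 3 marks therefore read different steps in the use of a gene.

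The libraries differed in depth and in how much of it lay in peaks. The H3.3 library held 41.2 M tags, the H3K4me3 library 35.4 M and the H3K36me3 library 24.3 M. Called peaks took up 14.0% of the H3.3 tags, 12.7% of the H3K4me3 tags and 2.88% of the H3K36me3 tags, against 31.3% for H3K36me3 in D0 at 24.6 M tags. The authors required a fold over input of 2 for H3.3 and of 4 for the other marks, and all 3 lists were called against the same iPSC input. A gene without a called peak is therefore a gene at which none was detected at this depth, above all for H3K36me3. As a check of the label, 9 of 10 markers of pluripotent cells were in the annotation. All 9 carried H3.3 (59.8% of all genes) and H3K4me3 (68.5%), and 3 carried H3K36me3 (33.5%). Of 10 fibroblast markers, 2 carried H3.3, 6 carried H3K4me3 and 1 carried H3K36me3. The H3K36me3 count of the pluripotent markers and the H3K4me3 count of the fibroblast markers were near the shares of all genes. These counts therefore do not bear on the label. Col3a1, Postn, Acta2 and Lum, which encode matrix and contractile proteins of fibroblasts, carried no mark, as did 27.2% of all genes. Among the other fibroblast markers, Thy1, Twist2, Prrx1 and Col1a2 carried H3K4me3 only. Col1a1 carried H3.3 with H3K4me3, and another carried all 3 marks.

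The gene starts themselves differed between the combinations of marks, and the 250 bases before 6 of them are printed because they show the range of CpG content that goes with the marks. The capitals mark each CG. The sequences are from build mm9, 5′ to 3′ on the strand of the gene. Setd2 (chr9:110434851-110435100, plus strand), the H3K36 methyltransferase, stands for genes with all 3 marks. Nanog (chr6:122657257-122657506, plus strand), a homeobox factor of pluripotency, stands for genes with H3.3 and H3K4me3. Phlda3 (chr1:137662446-137662695, plus strand), a target of p53, carried H3K4me3 only. Car5a (chr8:124468805-124469054, minus strand), a mitochondrial carbonic anhydrase, carried H3.3 only. Zfp445 (chr9:122771247-122771496, minus strand), a zinc-finger protein, carried H3.3 and H3K36me3. Lum (chr10:97027885-97028134, plus strand), the fibroblast matrix proteoglycan lumican, carried no mark.
Setd2: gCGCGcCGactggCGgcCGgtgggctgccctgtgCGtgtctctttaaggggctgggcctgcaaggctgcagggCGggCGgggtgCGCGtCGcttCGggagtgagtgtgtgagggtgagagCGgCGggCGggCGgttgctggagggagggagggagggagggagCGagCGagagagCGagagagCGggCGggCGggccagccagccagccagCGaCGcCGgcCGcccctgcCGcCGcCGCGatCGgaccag
Nanog: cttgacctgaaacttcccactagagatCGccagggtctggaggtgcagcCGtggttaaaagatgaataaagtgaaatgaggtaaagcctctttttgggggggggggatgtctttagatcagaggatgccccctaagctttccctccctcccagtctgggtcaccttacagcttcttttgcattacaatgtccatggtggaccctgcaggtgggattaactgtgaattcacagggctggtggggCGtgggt
Phlda3: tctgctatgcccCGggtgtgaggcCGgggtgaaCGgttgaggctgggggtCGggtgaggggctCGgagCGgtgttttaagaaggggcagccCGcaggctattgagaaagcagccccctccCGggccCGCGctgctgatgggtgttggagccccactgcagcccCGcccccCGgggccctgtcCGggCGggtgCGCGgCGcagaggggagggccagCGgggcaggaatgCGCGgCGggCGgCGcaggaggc
Car5a: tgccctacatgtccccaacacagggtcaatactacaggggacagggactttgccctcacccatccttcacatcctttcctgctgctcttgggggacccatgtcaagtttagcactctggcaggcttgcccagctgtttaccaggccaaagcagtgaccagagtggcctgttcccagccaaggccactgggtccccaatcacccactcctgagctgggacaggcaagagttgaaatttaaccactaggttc
Zfp445: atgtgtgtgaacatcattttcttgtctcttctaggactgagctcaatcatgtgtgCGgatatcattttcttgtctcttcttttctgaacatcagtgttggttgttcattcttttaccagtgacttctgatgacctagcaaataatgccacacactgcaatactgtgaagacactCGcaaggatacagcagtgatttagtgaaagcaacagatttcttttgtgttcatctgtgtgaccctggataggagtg
Lum: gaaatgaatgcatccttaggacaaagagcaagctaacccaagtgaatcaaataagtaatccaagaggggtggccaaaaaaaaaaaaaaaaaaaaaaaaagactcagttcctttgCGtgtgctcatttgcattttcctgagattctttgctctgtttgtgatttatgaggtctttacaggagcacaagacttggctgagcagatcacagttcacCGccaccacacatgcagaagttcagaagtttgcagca
The Setd2 stretch held 31 CpG and the Phlda3 stretch 23. The other starts were CpG-poor, with 3 at Nanog, 2 each at Zfp445 and Lum, and 0 at Car5a. Over all genes, the median count in this stretch was 17 for genes with all 3 marks, 12 for H3.3 with H3K4me3, 10 for H3K4me3 only, 3 for H3.3 only and 2 for genes with no mark, against 8 for all genes. It was 3 for H3.3 with H3K36me3. Nanog and Car5a lay below the lower quartiles of their combinations, 6 and 2, and Setd2 and Phlda3 lay above the upper quartiles of theirs, 23 and 17. These starts are therefore not typical of their combinations in CpG count.

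Most marked genes carried H3.3 and H3K4me3 together. H3.3 was carried by 13294 genes (59.8%), H3K4me3 by 15227 (68.5%) and H3K36me3 by 7454 (33.5%). All 3 marks were found on 6922 genes, 31.1% of those sorted (95% interval 30.5 to 31.8%). H3.3 with H3K4me3 but not H3K36me3 was found on 5498 genes (24.7%). H3K4me3 alone was found on 2458 genes (11.1%) and H3.3 alone on 775 (3.49%). The remaining combinations were small, with 349 genes (1.57%) carrying H3K4me3 and H3K36me3, 99 (0.445%) carrying H3.3 and H3K36me3, and 84 (0.378%) carrying H3K36me3 only. No mark was called on 6040 genes (27.2%).

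**Figure D1:**
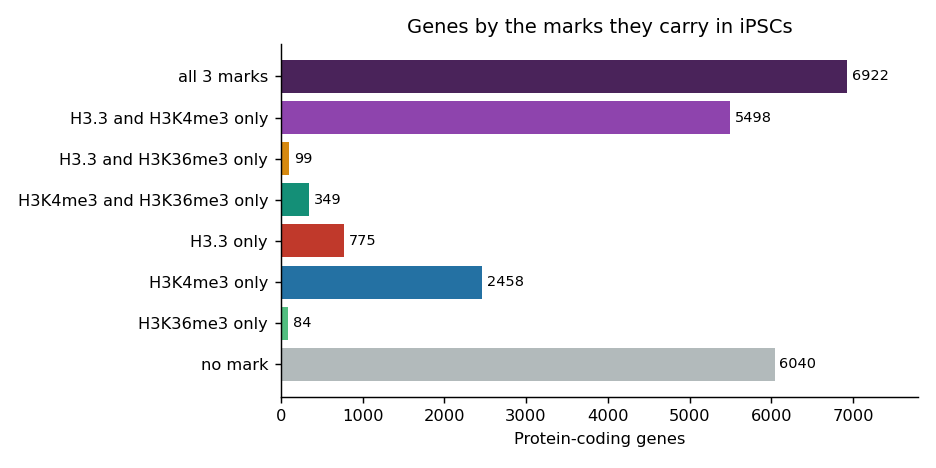
Number of protein-coding genes in each of the 8 combinations of H3.3, H3K4me3 and H3K36me3 in iPSCs, 1 library per mark (bars, with the count beside each). Genes with all 3 marks (6922), with none (6040) and with H3.3 and H3K4me3 (5498) make up most of the 22225 genes.

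Seen from the rarest mark, the 3 were nested. Of the genes with H3K36me3, 97.5% also carried H3K4me3 and 94.2% also carried H3.3. Of the genes with H3.3, 93.4% carried H3K4me3 and 52.8% carried H3K36me3. Of the genes with H3K4me3, 81.6% carried H3.3 and 47.8% carried H3K36me3, whereas among genes without H3K4me3 H3.3 was found on 12.5% and H3K36me3 on 2.62%. H3K36me3 was thus seldom called on a gene that lacked either of the others. The limit of 200 bp decided few of these calls, since peaks covered between 1 and 199 bp of only 121 (H3.3), 33 (H3K4me3) and 90 (H3K36me3) genes.

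The number of H3.3 genes depended on the fold limit of its list. Only 22.6% of the H3.3 peaks reached the fold of 4 that the other lists required. With those peaks alone, all 3 marks were found on 3754 genes, H3.3 with H3K4me3 on 2318, H3K4me3 only on 5638 and H3K4me3 with H3K36me3 on 3517. With the same number of top-scoring peaks in every list, H3.3 with H3K4me3 was found on 3043 genes and H3K4me3 only on 4460. The H3K4me3-only genes below are therefore genes with no H3.3 peak at the fold of 2, the more inclusive reading of the H3.3 list.

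Genes with all 3 marks were the longest and had the most exons and the most CpG-rich starts. The sorting did not use CpG content or exons, whereas length sets how many bases a peak could cover. Their median length was 28.4 kb with all 3 marks, 18.1 kb with H3.3 and H3K4me3, 17.1 kb with H3K4me3 only, 16.0 kb with H3.3 only and 3.62 kb with none. The median number of exons was 11 with all 3 marks and 3 with none. Of the genes with no mark, 35.0% had a single exon, against 0.433% of those with all 3. No mark was called on 76.0% of genes under 2 kb and on 5.04% of genes over 100 kb. H3K36me3 was called on 2.28% of genes under 2 kb, 51.9% of those of 30 to 100 kb and 39.5% of those above 100 kb, while H3K4me3 (91.4%) and H3.3 (78.3%) had their highest shares in the longest class.

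CpG content separated the combinations that held H3K4me3 from those that did not. It was measured as observed over expected CpG in the 1 kb around the start. The median was 0.765 with all 3 marks, 0.677 with H3K4me3 and H3K36me3, 0.653 with H3.3 and H3K4me3, and 0.584 with H3K4me3 only. In contrast, it was 0.230 with H3.3 only, 0.229 with H3K36me3 only, 0.212 with H3.3 and H3K36me3, and 0.166 with no mark. A ratio of at least 0.6 was reached by 79.7% of the genes with all 3 marks and 47.1% of those with H3K4me3 only, but by 2.45% of those with H3.3 only and 0 of the 99 with H3.3 and H3K36me3. Read the other way, 99.1% of the 10158 CpG-rich genes carried H3K4me3, 85.6% H3.3 and 56.7% H3K36me3. Among the 12067 other genes, the shares were 42.7%, 38.1% and 14.1%. Among CpG-rich genes alone, length still went with H3K36me3, which was found on 7.71% of those under 2 kb and 67.5% of those of 30 to 100 kb.

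**Figure D2:**
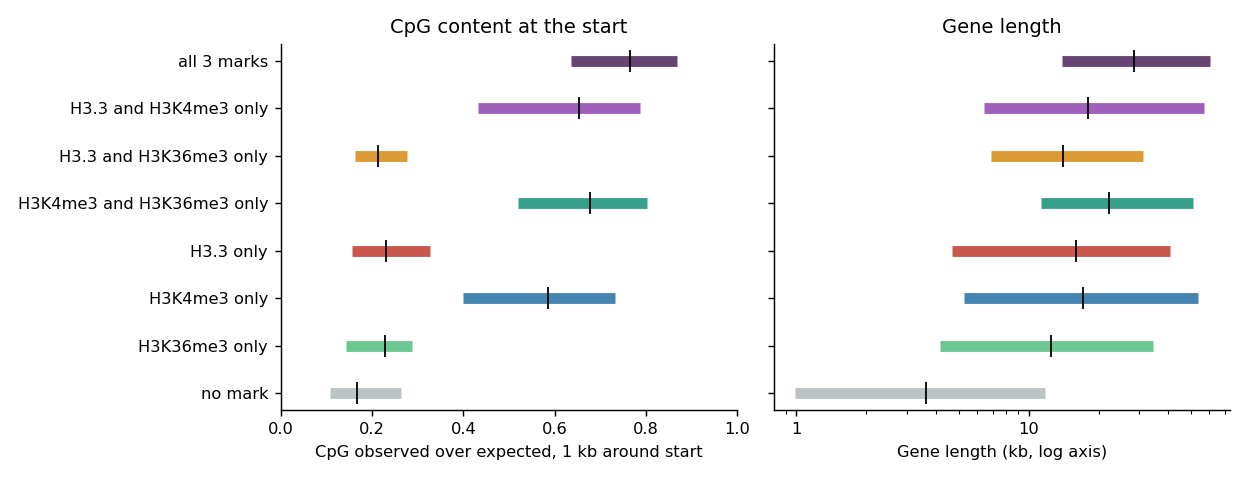
CpG observed over expected in the 1 kb around the gene start (left) and gene length in kb on a log axis (right) for the genes of each combination of marks. Coloured bars span the lower to the upper quartile and black ticks mark the median. The 4 combinations with H3K4me3 have medians of 0.584 to 0.765, the 4 without it 0.166 to 0.230.

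H3K4me3 was held at gene starts, H3K36me3 in gene bodies, and H3.3 was spread over starts, bodies, gene ends and intergenic DNA. Of the bases under H3K4me3 peaks, 43.7% lay within 1 kb of a start, where 2.30% of the genome lies. The share was 11.9% for H3.3 and 3.56% for H3K36me3. With the rest of the gene body cut into 3 equal parts, H3K36me3 placed 24.2% of its bases in the first, 28.5% in the middle and 32.5% in the last. H3.3 placed 19.1%, 14.3% and 14.4% there, and a further 6.30% in the 5 kb past the end, which make up 2.97% of the genome. Outside genes and these flanks lay 32.5% of the H3.3 bases, 19.5% of the H3K4me3 bases and 5.08% of the H3K36me3 bases, against 57.4% of the genome. Exons made up 16.0% of the gene-body bases under H3K36me3, 16.7% of those under H3K4me3 and 11.01% of those under H3.3, against 5.75% of the gene-body bases of the genome.

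Around the start, the H3.3 and H3K4me3 profiles had different shapes. Among the 13860 genes with an H3K4me3 peak at the start, H3K4me3 covered the start itself in 93.0% and its highest point, 95.2%, lay at +250 bp. Within 1 kb of the start H3.3 had its lowest share, 24.5%, at +50 bp, between 46.7% at -750 bp and 40.7% at +850 bp. The H3.3 peaks thus flanked the start more often than they covered it. H3K36me3 covered 0.0970% of these starts and reached 6.23% at +3150 bp.

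Along the whole gene, the marks were followed from start to end in the 5803 genes over 10 kb with all 3 marks. H3K4me3 covered 82.3% of these genes in the first of 40 equal bins and 3.71% in the last. H3K36me3 covered 0.683% in the first bin, had its highest share, 9.69%, at 78.8% of the length, and still covered 6.50% just past the end. H3.3 covered 38.4% in the first bin, fell to 14.2% at 76.3% of the length, and was higher again at the end, with 23.3% in the last bin and 24.7% in the 500 bp past it. Over all 13459 genes longer than 10 kb, whatever their marks, H3.3 covered 8.01% at its lowest, 12.7% in the last bin and 14.0% just past the end. In the 6584 of them with no other gene within 5 kb, the values were 5.82%, 7.49% and 8.45%, a smaller difference between body and end.

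**Figure D3:**
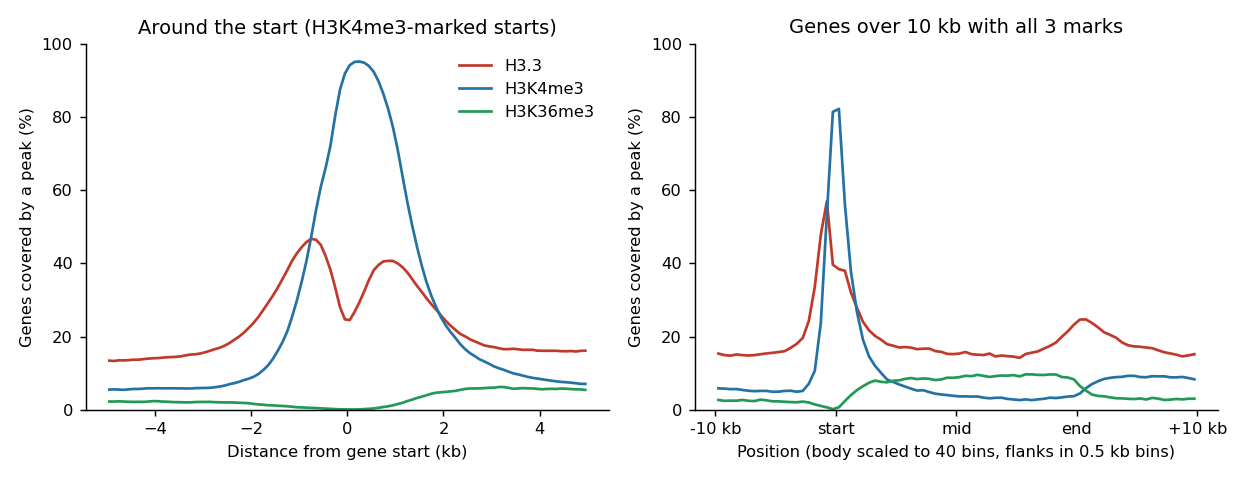
Share of genes covered by a peak of each mark. Left, distance from the start in kb for the 13860 genes with H3K4me3 at the start. Right, gene body scaled to 40 bins with 10 kb flanks in 500 bp bins, for the 5803 genes over 10 kb with all 3 marks. H3.3 dips at the start between 2 shoulders and is higher again at the gene end, H3K4me3 is highest just inside the start, and H3K36me3 is higher towards the end of the body.

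The centre of the covered bases was then taken within each gene. H3.3 cover was highest in the first bin and higher again at the end, so its centre need not be the place of most cover. The median H3K4me3 centre lay at 7.76% of the gene length, the median H3.3 centre at 40.1% and the median H3K36me3 centre at 55.8%, over the genes longer than 10 kb that had the mark in the body. In 5664 genes all 3 centres could be measured. H3K4me3 lay nearer the start than H3K36me3 in 92.9% of them and nearer than H3.3 in 89.6%, and H3.3 lay nearer than H3K36me3 in 72.5%. The full order of the centres, H3K4me3, H3.3 and H3K36me3, held in 3620 genes, 63.9% (95% interval 62.7 to 65.2%). It held in 65.0% of the 2223 of these genes with no neighbour within 5 kb.

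The marks met on the same genes more often than on the same bases. This goes largely with the measure, since 200 bp of a mark anywhere in the gene region was enough for a gene. H3.3 and H3K4me3 shared 24.0 Mb, which was 22.5% of the H3.3 bases and 45.5% of the H3K4me3 bases. H3.3 and H3K36me3 shared 5.45 Mb, or 5.11% of the H3.3 and 27.8% of the H3K36me3 bases. H3K4me3 and H3K36me3 shared 1.82 Mb, or 3.45% and 9.30%, although 97.5% of the H3K36me3 genes carried both. Only 1.24 Mb of the 148.9 Mb under any peak lay under all 3 marks, and 40.9% of these bases were in the first of the 3 parts of a gene body. Bases under H3.3 alone were the largest class, at 78.4 Mb, and 38.0% of them lay outside genes and the 5 kb past gene ends.

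H3.3 and H3K4me3 formed wide peaks, and H3K36me3 was called in short pieces. H3.3 peaks had a median length of 782 bp and H3K4me3 peaks one of 1017 bp, while the median H3K36me3 peak had the smallest width called, 500 bp. At that smallest width were 57.0% of the H3K36me3 peaks, 31.8% of the H3.3 peaks and 26.4% of the H3K4me3 peaks. The H3.3 list held 2009 peaks over 5 kb, the H3K4me3 list 791 and the H3K36me3 list 30. In D0, where more of the H3K36me3 tags lay in peaks, the median was 1086.5 bp for H3K36me3 and 7920 peaks passed 5 kb. How much of the short H3K36me3 peaks in iPSCs went with the low share of tags in peaks was not tested. Long H3.3 peaks were the least enriched, since 28.4% of those of 500 bp but 5.82% of those over 5 kb reached a fold of 4.

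**Figure D4:**
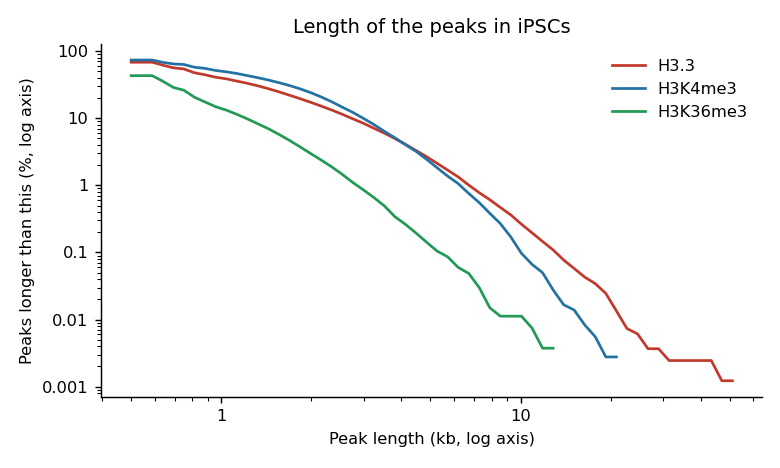
Share of peaks (%, log axis) longer than a given length (kb, log axis) for H3.3, H3K4me3 and H3K36me3 in iPSCs. H3K36me3 has the smallest share at every length, and above about 5 kb H3.3 has the largest share of long peaks.

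The longest peaks lay in or reached over a few genes. The longest H3.3 peaks spanned 54.3 kb at Phf17, a scaffold of a histone acetyltransferase complex, 44.6 kb at 6430527G18Rik and 29.7 kb at Trim71, an RNA-binding ubiquitin ligase of early embryos. Most of the peak at 6430527G18Rik lay outside this gene of 4.11 kb, whose region held 4.39 kb of H3.3. The longest H3K4me3 peaks measured 21.4 kb at Mllt6, 18.4 kb at Trim71 and 16.6 kb at Sall4, a zinc-finger factor of pluripotency. The longest H3K36me3 peaks measured 13.6 kb at Srrm2, a splicing factor, 11.01 kb at Trim25, a ubiquitin ligase, and 10.6 kb at Slc2a1, the main glucose transporter. Trim71 was the gene found in more than 1 of these sets, and there the H3.3 and the H3K4me3 peak were separate. Phf17 was covered over 94.1% of its region by H3.3, 55.5% by H3K4me3 and 33.5% by H3K36me3.

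The H3K4me3 peak at the start was widest on genes with all 3 marks. Its median width was 2550 bp with all 3 marks, 1977 bp with H3.3 and H3K4me3, 1761 bp with H3K4me3 and H3K36me3, and 1399.5 bp with H3K4me3 only. It passed 5 kb on 818 genes, of which 604 carried all 3 marks, 199 carried H3.3 and H3K4me3, and 13 carried H3K4me3 only. Among gene lists, 17 of the 35 pluripotency genes and 37 of the 82 ribosomal protein genes with such a peak passed 5 kb, with medians of 4772 and 4770.5 bp. None of the 63 germ layer regulators, 29 Hox genes or 30 neuronal synaptic genes did, with medians of 2263, 1992 and 1281 bp. Of all genes with a peak at the start, 5.90% passed 5 kb.

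Pluripotency genes were covered by H3.3 and H3K4me3 over much of their length. Of the 39 in the annotation, 37 carried H3.3 (59.8% of all genes), 39 carried H3K4me3 (68.5%) and 16 carried H3K36me3 (33.5%). All 3 marks were on 16 and H3.3 with H3K4me3 on 21. The median share of the gene region covered was 51.8% for H3.3 and 46.6% for H3K4me3, compared with 2.79% and 4.36% among all genes. Of the H3.3 calls, most rested on peaks with a fold under 4: at a fold of 4 or more 30.8% of the list kept H3.3, against 28.7% of all genes. With equal numbers of top-scoring peaks 89.7% kept it, against 39.7% of all genes.

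The members with all 3 marks were longer genes than those without H3K36me3, with median lengths of 25.8 and 5.98 kb. Nanog, with 7.07 kb under H3K4me3, was covered over its whole region by 8.14 kb of H3.3 and held no H3K36me3 peak. Sox2, a partner of Oct4 in the pluripotency network, had 2.57 kb of H3.3 and 3.46 kb of H3K4me3, again without H3K36me3. Tdgf1, a Nodal co-receptor, and Fgf4, a growth factor of the inner cell mass, showed the same pair of marks, with 5.40 and 2.91 kb of H3.3. These named genes were thus fully or largely covered by 2 marks while the third was not detected. Over the 21 members with these 2 marks, the median H3.3 cover was 51.3% of the region. Other short members had less H3.3, with 2.86% at Tcl1, 16.8% at Utf1 and 30.3% at Klf2.

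Some of the long pluripotency genes, though not all, carried the widest H3.3 cover of the list. Jarid2, a Polycomb cofactor, had 107 kb of H3.3, 25.02 kb of H3K4me3 and 6.01 kb of H3K36me3. Tet1, which oxidizes 5-methylcytosine, had 73.6, 24.1 and 3.07 kb. Trim71 had 49.8, 33.6 and 4.17 kb, and Esrrb, a nuclear receptor of naive pluripotency, 47.3, 32.6 and 0.5 kb. In all of these H3.3 covered more bases than H3K4me3 and H3K36me3 together. Sall4 differed, with 16.0 kb of H3.3 and 17.2 kb of H3K4me3. Lin28b, 110 kb long, had only 1.31 kb of H3.3 and 4.04 kb of H3K4me3. Nr5a2, 117 kb long, had 15.5 and 11.6 kb. Lefty2, a Nodal antagonist, and Nr0b1, an X-linked nuclear receptor, carried H3K4me3 only.

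Pou5f1 (chr17:35642982-35647721, plus strand), which encodes Oct4, was among the 3 leading genes with H3.3 and H3K4me3, ranked by the smaller of the summed scores of its marks. Its region was covered 100% by H3.3 (5.74 kb) and 71.1% by H3K4me3 (4.08 kb). Its score comes with a high input: the iPSC input held 401 tags per kb in the H3.3 peak over Pou5f1, 28.2 times the median of all H3.3 peaks, against 1.23 times in the ESD3 list. In the same iPSC input, the values were 1.01 times the median at Sox2, 2.01 at Klf4 and 1.34 at Nanog. The part of the input in the Pou5f1 score was not tested. Sfi1, a spindle protein gene and the next of the 3, had 39.5 times the median input in iPSCs and 29.7 times in ESD3.

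Germ layer regulators and Hox genes were marked mainly by H3K4me3. All 66 germ layer regulators carried H3K4me3 (68.5% of all genes), 23 carried H3.3 (59.8%) and 5 carried H3K36me3 (33.5%). H3K4me3 was the only mark on 40 (60.6%, interval 48.5 to 71.5%), against 11.1% of all genes, and a further 21 carried H3.3 with H3K4me3. Their median CpG ratio was 0.687, and the median H3K4me3 cover was 43.0% of the gene region. Gata2 and Gata3, zinc-finger factors of blood and other lineages, carried all 3 marks, with 3.68 and 5.01 kb of H3.3, 5.57 and 13.4 kb of H3K4me3, and 2.87 and 2.92 kb of H3K36me3. Eomes, Hand1 and Sox7 carried H3K4me3 and H3K36me3; these 3 are named after their values were seen. Under a fold of 4 the share of this list with H3.3 was 16.7%, against 28.7% of all genes, and with equal peak numbers it was again 16.7%, against 39.7%.

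Of 39 Hox genes, 36 carried H3K4me3 (68.5% of all genes), 11 carried H3.3 (59.8%) and 1 carried H3K36me3 (33.5%). H3K4me3 was the only mark on 25, against 11.1% of all genes. Hoxa13, the distal limb gene, carried all 3 marks, with 0.781 kb of H3.3, 2.62 kb of H3K4me3 and 0.5 kb of H3K36me3, and of H3.3 and H3K4me3 only the latter had a peak at its start. Hoxb1, Hoxb2 and Hoxd12 carried none. With equal peak numbers 5.13% of Hox genes carried H3.3, against 39.7% of all genes.

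Fibroblast genes split over the combinations. Of 40, 30 carried H3K4me3 (68.5% of all genes), 18 H3.3 (59.8%) and 6 H3K36me3 (33.5%). The H3K4me3 share of 75% was near that of all genes, and the interval of the H3.3 share of 45%, 30.7 to 60.2%, held that of all genes. H3K4me3 was the only mark on 12 (11.1% of all genes), and another 12 carried H3.3 with H3K4me3 (24.7%). All 3 were on 5 (31.1%), and 9 carried none (27.2%). The shares of this list with H3.3 and H3K4me3, 30%, and with no mark, 22.5%, were near those of all genes. Col1a1, a chain of type I collagen, carried 2.46 kb of H3.3 and 2.08 kb of H3K4me3, while Col1a2, the other chain, carried 1.27 kb of H3K4me3 only. Thbs1, a matrix glycoprotein, had 2.47 kb of H3K4me3 and 3.17 kb of H3K36me3, and Col5a2 had a single H3.3 peak of 0.5 kb. With equal peak numbers the share of this list with H3.3 was 17.5% in place of 45%, against 39.7% of all genes.

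The genes for H3.3, its chaperones and the writers and erasers of the other marks nearly all carried the 3 marks. They did so in 10 of 11 H3.3 and chaperone genes, 19 of 19 genes of the H3K4 methylation machinery and 17 of 19 of the H3K36 methylation machinery, against 31.1% of all genes. The median lengths of these lists were 21.4, 28.3 and 76.8 kb, and the median CpG ratios 0.915, 0.824 and 0.790. Among CpG-rich genes, all 3 marks were on 63.4% of those of 10 to 30 kb and 65.0% of those of 30 to 100 kb. H3f3a, which encodes H3.3, had 10.8 kb of H3.3, 6.03 kb of H3K4me3 and 1.30 kb of H3K36me3. Hira had 10.3, 4.45 and 5.26 kb, and Daxx had 6.67, 5.85 and 2.62 kb. Atrx, the X-linked remodeler that works with Daxx, was the exception among the chaperones, with 4.60 kb of H3.3, 12.7 kb of H3K4me3 and no H3K36me3. No gene of these 3 lists carried H3.3 alone.

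Within the H3K4 list, Kdm5b, an H3K4 demethylase, came next to Ash2l in the share of its region under H3.3 (58.7%), with 43.3 kb of H3.3, 13.4 kb of H3K4me3 and 9.18 kb of H3K36me3. Ash2l, a core subunit of the H3K4 methyltransferases, was covered 59.6% by H3.3 and 28.2% by H3K4me3. Setd2 had 15.2 kb of H3.3, 3.15 kb of H3K4me3 and 11.1 kb of H3K36me3. Nsd1, an H3K36 dimethylase, had 67.6, 14.8 and 14.0 kb. Ash1l, another H3K36 methyltransferase, carried 5.97 kb of H3.3 and 9.96 kb of H3K36me3 with no H3K4me3, and Phf19, which binds H3K36me3, carried 0.566 kb of H3.3 and 2.50 kb of H3K4me3 without H3K36me3. On the H3K36 list, H3K36me3 covered more bases than H3K4me3 in 9 of 19 genes, Setd2 among them, and fewer in 10, Nsd1 among them.

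Housekeeping lists carried all 3 marks on most members, against 31.1% of all genes. Of 36 DNA replication and repair genes 32 carried all 3, of 17 glycolysis genes 15, of 39 proteasome genes 28, of 75 oxidative phosphorylation genes 48 and of 82 ribosomal protein genes 55. Among CpG-rich genes, all 3 marks were on 30.3% of those of 2 to 5 kb, 47.6% of those of 5 to 10 kb and 63.4% of those of 10 to 30 kb. Every gene of the ribosomal, oxidative phosphorylation, proteasome and replication lists carried H3K4me3, against 68.5% of all genes. Ribosomal protein genes had a median length of 3.31 kb and were covered 94.5% by H3K4me3, 57.4% by H3.3 and 15.3% by H3K36me3. The ribosomal genes without H3K36me3 were shorter than those with all 3, with medians of 2.91 kb for H3.3 and H3K4me3, 2.16 kb for H3K4me3 only and 3.78 kb for all 3. In the glycolysis list, Aldoc, an aldolase, lacked H3K4me3 and Tpi1, triosephosphate isomerase, lacked H3K36me3. H3.3 was on 92.7% of ribosomal protein genes, against 59.8% of all genes. When only peaks with a fold of 4 or more were counted, the order was turned, with H3.3 on 14.6% of ribosomal protein genes and 28.7% of all genes.

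Replication-dependent histone genes carried H3.3 and H3K4me3 but no H3K36me3 peak. Their median length was 0.53 kb, and 61 of the 67 have a single exon. H3.3 with H3K4me3 was on 51, H3K4me3 only on 12, H3.3 only on 4 and H3K36me3 on 0 (95% interval up to 5.42%). The 4 with H3.3 only were Hist1h2bm, Hist1h2an, Hist1h2bp and Hist1h4b, and all 4 carried H3K4me3 in D0. Histone genes lie in clusters of near-identical copies, and the authors dropped reads with several mapping positions, so the calls at single members are uncertain. Short genes seldom held an H3K36me3 peak in iPSCs, with 2.28% of all genes and 7.71% of CpG-rich genes under 2 kb, and in D0 H3K36me3 was called on 0 of the 67 as well.

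Neuronal genes were marked over little of their length, and receptor families were mostly without a mark. The 39 synaptic and adhesion genes of neurons had a median length of 995 kb. H3.3 with H3K4me3 was on 28 of them, 71.8% against 24.7% of all genes, and no mark on 7.69%, against 27.2%. The median cover was 0.244% of the gene region for H3.3 and 0.256% for H3K4me3. Their calls thus rested on few peaks in very long genes. Gria1, a glutamate receptor subunit, Nkain2 and Nlgn1, a synaptic adhesion protein, carried none. Of 1113 olfactory receptor genes 1100 carried no mark, and of 319 vomeronasal receptor genes 298 carried none, against 27.2% of all genes. These genes are short and CpG-poor, with median lengths of 0.96 and 1.08 kb and median CpG ratios of 0.135 and 0.103. Among all genes under 2 kb with a ratio below 0.6, 86.7% carried no mark. Reads at more than 1 locus were removed, and how many were lost in these families was not tested. Among the vomeronasal genes with a mark, 16 carried H3.3 only. This was 5.02% of the list (interval 3.11 to 7.99%), near the 3.49% of all genes. The 3 longest genes without a mark were Pcdh9 (873 kb), Nlgn1 (702 kb) and Rbfox1 (603 kb), which encode a protocadherin, a neuroligin and a splicing factor of neurons.

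Zinc-finger genes named Zfp appeared among the rare genes with H3K36me3 and no H3K4me3. Of 361 Zfp genes, 147 carried all 3 marks, 121 H3.3 with H3K4me3, 32 H3K4me3 only and 23 none. H3K36me3 without H3K4me3 was found on 183 genes in all, of which 15 were Zfp genes, 8.20% (interval 5.03 to 13.1%). Zfp genes made up 1.62% of all genes and 2.24% of the genes with both H3K36me3 and H3K4me3. Those 15 were short, with median lengths of 7.35 kb for the 8 that carried H3.3 and 5.14 kb for the 7 that did not, and the median CpG ratio at their starts was 0.181 and 0.239. These genes share related sequences, so reads among close copies could have been lost, and the counts are uncertain to that extent.

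**Figure D5:**
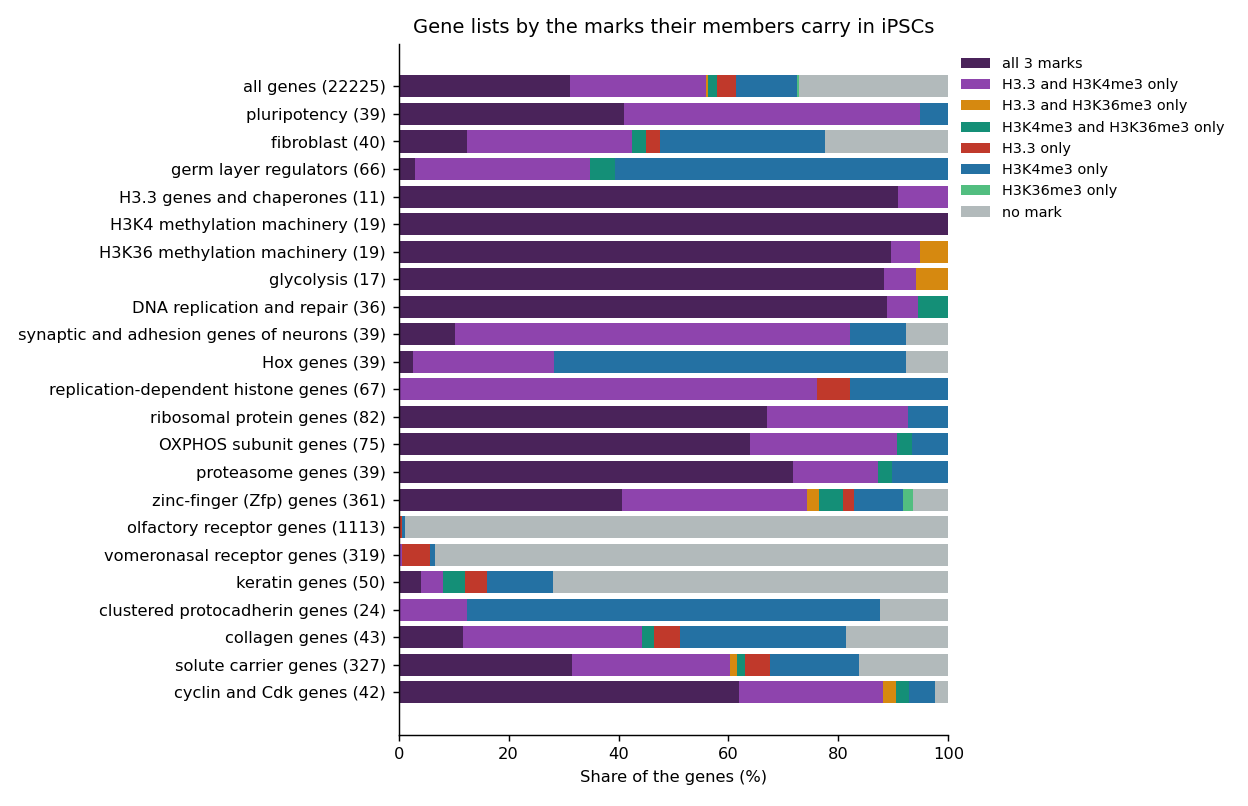
Share of the genes (%) of each list that fall in each combination of marks in iPSCs, with the number of genes in brackets and all 22225 genes on top. Pluripotency and housekeeping lists are mostly all 3 marks or H3.3 with H3K4me3, germ layer, Hox and clustered protocadherin genes are mostly H3K4me3 only, and receptor families are mostly without a mark.

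The genes that led each combination were taken by the smallest summed peak score among their marks. Fgfr2, a fibroblast growth factor receptor, led the genes with all 3 marks, with 215 kb of H3.3, but its annotated span of 3009 kb takes in neighbouring genes. Etl4 also carried all 3, with 201 kb of H3.3, 35.7 kb of H3K4me3 and 33.6 kb of H3K36me3 in 901 kb. Plxna1, a semaphorin receptor, Ctsd, a lysosomal protease, and D8Ertd82e led the genes with H3K4me3 and H3K36me3. They had 4.63, 4.38 and 5.16 kb of H3K4me3 and 5.83, 5.87 and 6.46 kb of H3K36me3, and all 3 carried H3.3 in ESD3. Phlda3 and Rbmxrt were among the leading H3K4me3-only genes, with 3.79 and 4.24 kb. Neither carried H3.3 in ESD3.

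Among the genes with H3.3 only, Car5a had 8.14 kb of H3.3, 27.3% of its region, and Rbms3, an RNA-binding protein, had 7.92 kb in 1057 kb. Sprr2a2, a gene of the cornified envelope, led this combination with 3.02 kb, where the iPSC input was 6.01 times the median of H3.3 peaks. Of the 491 H3.3-only genes over 10 kb, H3.3 was found at the start of 20.6% and in the middle of 47.3%. With all 3 marks these shares were 83.5% and 68.7%. Of all 775 H3.3-only genes, 38.3% had an H3.3 peak at the start. Of the H3.3 peaks in these genes 22.9% lay within 1 kb of a start, against 15.0% in genes with all 3 marks.

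Genes with H3K36me3 but no H3K4me3 often had an H3K4me3 peak nearby. Gatad2b, a subunit of the NuRD complex, had 5.21 kb of H3.3 and 4.45 kb of H3K36me3, and Zfp445 had 4.25 and 9.26 kb, 82.6% of its region under H3K36me3. Arhgap5, a GTPase-activating protein, carried 2.87 kb of H3K36me3 only, and Zfp639 and Zfp930 carried 2.02 and 2.10 kb. The nearest H3K4me3 peak lay at a median of 7.68 kb from the 99 genes with H3.3 and H3K36me3, and within 10 kb of 56 of them. The median was 13.0 kb for the 84 genes with H3K36me3 only, 13.7 kb for the 775 with H3.3 only and 44.1 kb for the 6040 with no mark. Whether these starts are annotated at the place used in iPSCs was not tested.

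Genes on the X chromosome carried H3.3 and H3K36me3 less often than autosomal genes. H3.3 was on 13.4% of 927 X-linked genes (interval 11.3 to 15.7%) and 61.9% of 21281 autosomal genes, H3K4me3 on 49.9% and 69.4%, and H3K36me3 on 6.04% and 34.8%. CpG-rich genes alone showed the same, with H3K4me3 on 96.8% of 248 X-linked genes but H3.3 on 62 of them, against H3K4me3 on 99.2% and H3.3 on 87.2% on the autosomes. H3K36me3 was on 15.3% and 57.7% of them. In consequence 326 X-linked genes, 35.2%, carried H3K4me3 only, against 10.0% of autosomal genes. The input in the H3.3 peaks also differed, with a median of 10.1 tags per kb on the X and 14.3 on the autosomes. Its part in the difference was not tested. In the other libraries H3.3 was found on 37.9% of the CpG-rich X-linked genes in D0, 49.2% in D9T-, 18.95% in D16S+ and 13.3% in ESD3, against 87.7%, 84.7%, 64.4% and 73.2% on the autosomes. H3K36me3 was on 65.7% of the X-linked and 75.6% of the autosomal CpG-rich genes in D0, 67.7% and 77.5% in D9T-, and 15.7% and 43.5% in D16S+.

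The sorting made in iPSCs was then read in libraries it had not used. In ESD3, H3.3 was called on 85.3% of the genes with all 3 marks in iPSCs, 70.3% of those with H3.3 and H3K4me3, and 47.0% of those with H3.3 only. It was called on 20.9% of the H3K4me3-only genes and 4.04% of those with no mark, against 49.8% of all genes. In D0, H3.3 was called on 94.9% of the genes with all 3 marks, 77.9% with H3.3 and H3K4me3, and 46.8% with H3.3 only. It was on 45.4% of the H3K4me3-only genes and 11.6% of those with no mark, against 60.3% of all genes. H3.3 on a minority of the H3K4me3-only genes was thus not particular to the pluripotent line. Of the gene lists, H3.3 was on 34 of 39 pluripotency genes, 28 of 66 germ layer regulators, 14 of 39 Hox genes and 13 of 40 fibroblast genes in ESD3.

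In fibroblasts, H3K4me3 was called on most genes that carried it in iPSCs, and H3K36me3 was called on 48.2% of all genes against 33.5% in iPSCs. D0 carried H3K4me3 on 98.99% of the genes with all 3 marks in iPSCs, 94.3% of those with H3.3 and H3K4me3, 88.7% of those with H3K4me3 only and 9.83% of those with none. H3K36me3 in D0 was called on 91.8%, 49.5%, 30.9% and 5.28% of these. Genes with all 3 marks numbered 9527 in D0, 9338 in D9T- and 3668 in D16S+, against 6922 in iPSCs, while the libraries differed in tags and in tags within peaks. Of the iPSC genes with all 3 marks 88.3% had all 3 in D0, and of those with none 82.1% had none. Of the genes with H3.3 and H3K4me3 in iPSCs, 44.8% had all 3 marks in D0 and 31.5% had the same 2. Fibroblast genes carried all 3 marks on 36 of 40 in D0 and 5 of 40 in iPSCs, against 42.9% and 31.1% of all genes. Of the 39 pluripotency genes, 9 carried all 3 marks in D0 (42.9% of all genes) and 12 carried H3K4me3 only (9.40%). H3.3 with H3K4me3 was on 7 of them (14.0%) and H3.3 only on 2 (2.42%). No mark was called on 9, near the 26.0% of all genes in D0.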

How the data were processed

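ChIP-Seq peak lists of H3.3, H3K4me3 and H3K36me3 in iPSCs (1 library each) were used, with 10 lists of other cells for comparison; 17 further lists and the input libraries themselves were not used here. Per the paper's methods and the submitters' processing notes, reads were mapped to mm9 with STAR, reads at more than 1 locus were removed, and HOMER made tag directories and peaks (versions not given in the sources used here). Per the file headers, the authors called histone-style peaks in each library separately against an input, with a smallest width of 500 bp and neighbours within 1000 bp joined. The deposited peak score is a signal, namely the tags in the peak after the authors scaled each library to 10 M tags. The fold over input is a ratio given in the deposited lists, at least 2 for H3.3 and 4 for the other marks. The p-value of each peak in the deposited lists is from the authors' Poisson model, with a limit of 0.0001, unadjusted, and was not used.

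Peaks on unplaced sequences (325, 94 and 15 of the H3.3, H3K4me3 and H3K36me3 lists) were left out. Protein-coding genes came from GENCODE vM1 on mm9. A gene carried a mark when peaks covered at least 200 bp from 1000 bp before its start to its end, so a peak within overlapping genes counts for each. This differs from giving a peak to the nearest start, which was an alternative. Counts, shares with 95% Wilson intervals, covered bases and profiles were computed in Python 3.11.15 with numpy 2.4.6, pandas 2.3.3 and scipy 1.17.1; the counting of covered bases was tested on simulated data. Depth was 24.3 to 41.2 M tags.

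Members, gene lists and alternatives were chosen with earlier results of these data known. Named genes were all members of the pluripotency, chaperone and methylation machinery lists, the 3 genes per combination with the largest value of the smallest summed score over their marks (predicted names left out), the 3 longest genes without a mark, the 3 longest peaks per mark, and list members in the least common combination where 5 or fewer; some of these are not reported here. Alternatives were H3.3 peaks with a fold of at least 4, equal numbers of top-scoring peaks, peaks at or above the median score, nearest-start assignment, 1000 bp of cover, autosomes only, and genes with no neighbour within 5000 bp.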

Additional observations from a re-analysis of the deposited data

Results flagged for a closer look

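The iPSC input, which no comparison between marks used on its own, held 401 tags per kb inside the H3.3 peak over Pou5f1. This was 28.2 times the median input density of all iPSC H3.3 peaks, and 34.2 times the median in the H3K4me3 peaks there. In the ESD3 list the H3.3 peaks over Pou5f1 had 1.23 times the median. The H3.3 peak over Pou5f1 had a fold over input of 2.59 in iPSCs and the highest fold in ESD3 was 4.33. What raised the input at Pou5f1 was not tested.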

How the results depend on the processing

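No paired analysis was possible because each group had 1 library, and for the same reason no replicate could be left out. Of 87 recomputed counts and shares, 42 stayed within the limit set for a move (1.5 times for a count, the Wilson interval for a share) and 45 moved. With H3.3 peaks of a fold of at least 4, the counts were 3754 for all 3 marks, 2318 for H3.3 with H3K4me3, 34 for H3.3 with H3K36me3, 3517 for H3K4me3 with H3K36me3, 278 for H3.3 only, 5638 for H3K4me3 only and 149 for H3K36me3 only. The share of H3.3 bases near starts became 9.85%, the median H3.3 peak 650 bp, and the share of H3.3 bases under H3K4me3 19.9%. With equal peak numbers, H3.3 with H3K4me3 was on 3043 genes, H3.3 with H3K36me3 on 62, H3K4me3 with H3K36me3 on 1840, H3.3 only on 340, H3K4me3 only on 4460 and H3K36me3 only on 163. H3.3 and H3K4me3 then had 13.1% and 47.6% of bases near starts and medians of 2058 and 1438 bp, and H3.3 shared 24.95% with H3K4me3 and 5.42% with H3K36me3. With peaks at or above the median score, all 3 marks were on 4540 genes and H3K4me3 with H3K36me3 on 621. Median lengths were then 1544, 1945 and 753 bp for H3.3, H3K4me3 and H3K36me3, shares near starts 12.9% and 53.3% for H3.3 and H3K4me3, and shared bases 20.9% (H3.3 under H3K4me3), 4.04% (H3.3 under H3K36me3) and 2.56% (H3K4me3 under H3K36me3). Nearest-start assignment gave 569 genes with H3.3 and H3K36me3, 1202 with H3.3 only and 221 with H3K36me3 only. Requiring 1000 bp gave 4563 with all 3 marks, 41 with H3.3 and H3K36me3 and 46 with H3K36me3 only. Among genes with no neighbour within 5 kb, a smaller set by construction, the counts were 2497, 2168, 43, 187, 412, 1428 and 40 in the order first given. Using autosomes alone moved none of these. Genes kept their combination in 68.9% of cases at a fold of 4, 78.3% with equal peak numbers, 74.5% at the median score, 81.0% with nearest-start assignment and 74.7% with 1000 bp. The causes of these moves, other than fewer peaks or genes by construction, were not tested.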

Other observations

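Further gene families fell between the lists already described. Of 50 keratin genes 36 carried no mark, against 27.2% of all genes. Krt8 and Krt18, the partner keratins of simple epithelia, carried all 3, with 5.12 and 3.67 kb under H3K36me3, 59.3% and 76.3% of their regions. In D0 neither carried H3K36me3. Krt7 and Krt19, also of simple epithelia, carried H3K4me3 and H3K36me3, with 4.04 and 1.35 kb of H3K36me3. The 4 keratin genes with H3K36me3 were thus all genes of simple epithelia, an observation made after their values were seen.

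Of 42 cyclin and Cdk genes 26 carried all 3 marks. Of 327 solute carrier genes 103 did, close to the 31.1% of all genes. No mark was on 53 of them, 16.2% against 27.2% of all genes. Of 43 collagen genes 5 carried all 3, 14 H3.3 with H3K4me3 and 13 H3K4me3 only. Of 24 clustered protocadherin genes 18 carried H3K4me3 only (11.1% of all genes), and none carried H3K36me3 (33.5%). These genes share long overlapping transcripts and peaks, so they are not independent of each other.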
